A study of Homo sapiens with 12 samples.

Results

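The Wnt ligands, receptors and antagonists described here are 51 of the 22257 genes counted in LN229, an established human glioblastoma cell line. They were taken by symbol: every WNT and FZD gene, DKK1 to DKK4, the SFRP genes, and LRP5, LRP6, AXIN1, AXIN2, LEF1, TCF7, TCF7L1, TCF7L2, CTNNB1, APC, RNF43, ZNRF3, NKD1 and NKD2. The cells had been held for 24 hours in RPMI medium with dialysed serum that contained 10 mM glucose, 1 mM glucose plus 5 mM acetate, or 1 mM glucose alone. There were 4 libraries in each of these 3 groups, all from the same unmodified line, and nothing in the labels says whether the libraries came from separate cultures. The comparisons ask how this gene family differs with glucose supply, and with acetate as an added carbon source when glucose is low.

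Wnt proteins are secreted lipid-modified ligands that bind a Frizzled receptor together with the co-receptor LRP5 or LRP6. Without ligand, a complex built on APC and AXIN1 marks beta-catenin (CTNNB1) for breakdown. With ligand, beta-catenin accumulates, enters the nucleus and acts with the TCF/LEF factors. DKK1 and SFRP proteins can block the pathway outside the cell, and the DKK and SFRP genes are grouped here as secreted antagonists. AXIN2, RNF43, ZNRF3 and the NKD proteins are inhibitors that the pathway itself often induces. In glioblastoma, WNT5A is known for signalling that does not pass through beta-catenin and is linked to invasion.

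Total counts ran from 24.4 to 27.2 M (M, mega) per library, and levels are given as CPM, counts scaled to the library total, after TMM scaling. The libraries hold bulk RNA, so fewer cells expressing a gene and less RNA per cell cannot be told apart. Of 9 glioblastoma and astroglial markers, 8 were expressed in every group. At 10 mM against 1 mM glucose, edgeR called PDGFRA (7.68-fold), SOX2 (5.26-fold), NES (2.33-fold) and S100B (2.15-fold) higher and OLIG2 (2.94-fold), EGFR (1.49-fold), VIM (1.39-fold) and CD44 (1.38-fold) lower. GFAP was low and averaged 0.848 CPM at 10 mM glucose, 1.14 CPM under acetate, and 0.98 CPM at 1 mM glucose alone. As points of orientation, the chaperone HSPA5 averaged 1183 CPM at 10 mM glucose and 13042 CPM at 1 mM glucose alone, and the glucose-responsive TXNIP averaged 121 and 6.63 CPM in the same order. The summed level of 5 neuron markers was 59.6 to 68.9 CPM at 10 mM glucose, 136 to 146 CPM with added acetate and 132 to 159 CPM at 1 mM glucose alone. The summed level of 6 blood and endothelial markers was 19.0 to 23.1 CPM, 63.0 to 70.2 CPM and 54.7 to 65.0 CPM in the same order of groups, nearly all of it CD68. SYT1 made up most of the first sum wherever it was high, while RBFOX3, SLC17A7, CD3E, PECAM1 and CDH5 were at or near 0. At 10 mM against 1 mM glucose SYT1 was called lower (4.29-fold), SNAP25 was called higher (1.84-fold) and GAD1 was not called. In the same comparison CD68 was called lower (2.87-fold). VWF, at 0.873 against 0.302 CPM, was called higher (2.87-fold), and PTPRC was too low to test. The summed level of 4 fibroblast markers went the other way from the neuron and the blood and endothelial sums. It was 37.9 to 43.6 CPM at 10 mM glucose, 38.5 to 41.2 CPM with added acetate and 29.7 to 34.7 CPM at 1 mM glucose alone. Its members differed: LUM, the largest, and DCN were called higher at 10 mM than at 1 mM glucose (1.72-fold and 2.13-fold). COL1A1 was called lower (1.44-fold) and COL3A1 was not called. The called markers and the sums moved with glucose, and some markers also moved with acetate at 1 mM glucose. With acetate edgeR called VWF (3.08-fold), PDGFRA (1.90-fold), LUM (1.53-fold), DCN (1.52-fold), S100B (1.40-fold), SOX2 (1.23-fold) and SNAP25 (1.23-fold) higher. OLIG2 (1.58-fold) and VIM (1.17-fold) were called lower, and the other tested markers were not called. The part of the markers in the results was not tested for glucose or for acetate. Acetate replicate 1 and 1 mM replicate 3 stood apart: across genes, their deviation from the mean level correlated with transcript length at Spearman −0.481 and −0.486, against −0.178 to 0.228 in the other 10 libraries. Genes are not independent replicates, so these correlations only describe the libraries.

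At 10 mM glucose the LN229 cells held far less transcript of DKK1, the secreted antagonist that binds LRP5 and LRP6, than at 1 mM glucose. FZD7, RNF43 and TCF7 were between 3.3-fold and 4.2-fold higher, WNT5B was 3.11-fold lower, and each of the 4 TCF/LEF genes and CTNNB1 was higher. AXIN2, widely read as a target of beta-catenin, was lower. Of the 51 genes, 32 passed the filter on low counts and were tested, and 23 of these were called at an edgeR adjusted p under 0.05, 17 higher and 6 lower at 10 mM glucose. Among all 14416 genes tested, 67.5% were called, so the called share of the Wnt genes, 71.9%, lay near that background. Called higher were 53.1% of the Wnt genes tested, against 33.7% of all genes, and called lower 18.8%, against 33.8%. The 4 libraries of each group did not overlap in 20 of the 32, against 61.5% of all genes. Without acetate replicate 1 and 1 mM replicate 3, the libraries set apart above, 25 were called, 18 higher and 7 lower, against 72.7% of all genes (36.5% higher, 36.2% lower). The median log2 fold change was 0.41 over the 32 Wnt genes and 0.00 over all genes. Scaling by library totals moved the median of all genes by 0.14 and the higher share of their calls to 63.3%, against 49.9% with TMM. With that scaling the 23 calls among the Wnt genes were 78.3% higher, against 73.9% with TMM.

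**Figure D1:**
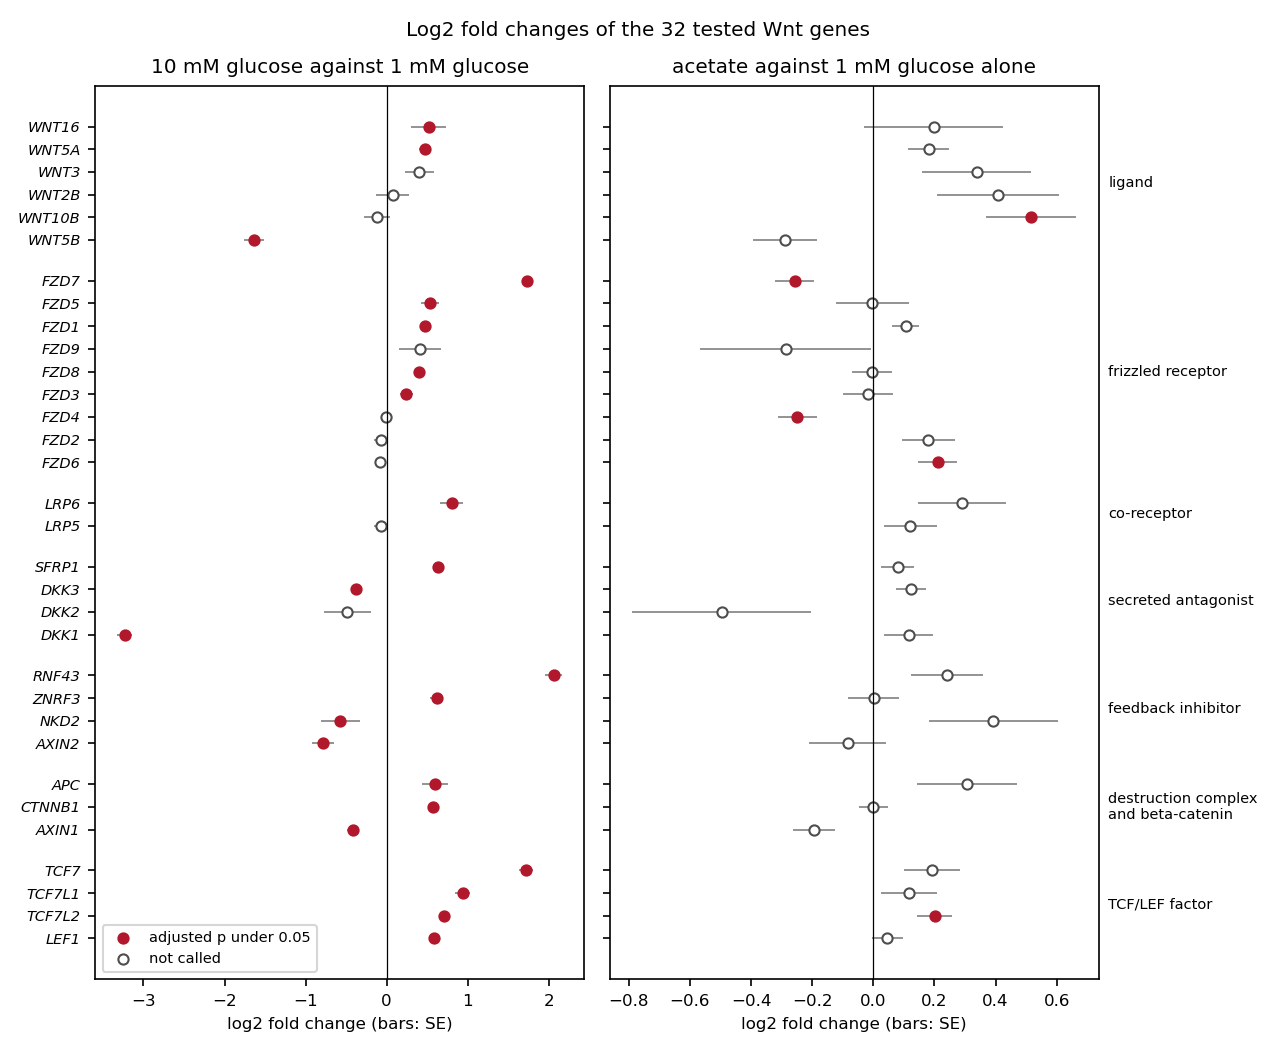
Log2 fold change of each tested Wnt gene (points) with its standard error (bars), for 10 mM against 1 mM glucose (left) and acetate against 1 mM glucose alone (right), grouped by role; filled points have an edgeR adjusted p under 0.05, and the horizontal ranges of the panels differ. The left panel runs from DKK1 at −3.23 to RNF43 at 2.06 with 23 filled points, and the right panel has 5.

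DKK1 had 30.6, 31.1, 38.6 and 35.3 CPM at 10 mM glucose, 392, 343, 327 and 318 CPM with acetate, and 321, 293, 325 and 335 CPM at 1 mM glucose alone. The 4 libraries at 10 mM glucose lay far below all 8 libraries at 1 mM, and the acetate and 1 mM libraries overlapped. The difference between 10 mM and 1 mM glucose was 9.39-fold (log2 fold change −3.23 ± 0.09, SE, edgeR adjusted p = 6.6e-13), and that between 10 mM glucose and acetate was as wide (log2 fold change −3.35 ± 0.09, SE, edgeR adjusted p = 6.7e-13). Acetate itself gave 0.12 ± 0.08 (SE, edgeR adjusted p = 0.382). DKK3, a relative of DKK1 that does not bind LRP6 in the same way, had 263, 271, 278 and 263 CPM at 10 mM glucose, 386, 391, 367 and 379 CPM with acetate, and 339, 340.4, 371 and 349 CPM at 1 mM glucose alone. Every library at 10 mM glucose lay below the other 8, by far less than for DKK1 (log2 fold change −0.38 ± 0.05, SE, edgeR adjusted p = 6.1e-06).

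SFRP1, a soluble protein with a Frizzled-like domain that binds Wnt ligands, moved the other way. It had 107, 101, 101 and 101 CPM at 10 mM glucose, 63.9, 70.3, 70.1 and 74.1 CPM with acetate, and 67.5, 67.4, 61.7 and 66.9 CPM at 1 mM glucose alone. All libraries at 10 mM glucose were above all others (log2 fold change 0.63 ± 0.05, SE, edgeR adjusted p = 1.1e-07). Levels divided by transcript length (CPM per kilobase, RPKM) allow these antagonists to be compared with each other. Over the 8 DKK and SFRP genes the summed RPKM was 143 ± 4.11 at 10 mM glucose, 352 ± 19.8 with added acetate and 325 ± 12.9 at 1 mM glucose alone (SD, n = 4 each). DKK1 made up 13.2% of that sum at 10 mM glucose, 54.6% with added acetate and 54.7% at 1 mM glucose alone. DKK3 was 70.7%, 40.9% and 40.6% of it in the same order of groups. Since DKK3 does not bind LRP6 as DKK1 does, the sum does not measure block of the pathway. SFRP1 was 15.9%, 4.42% and 4.52%. DKK2 averaged under 1 CPM in each group and was not called, and DKK4, SFRP2, SFRP4 and SFRP5 were too low to test.

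**Figure D2:**
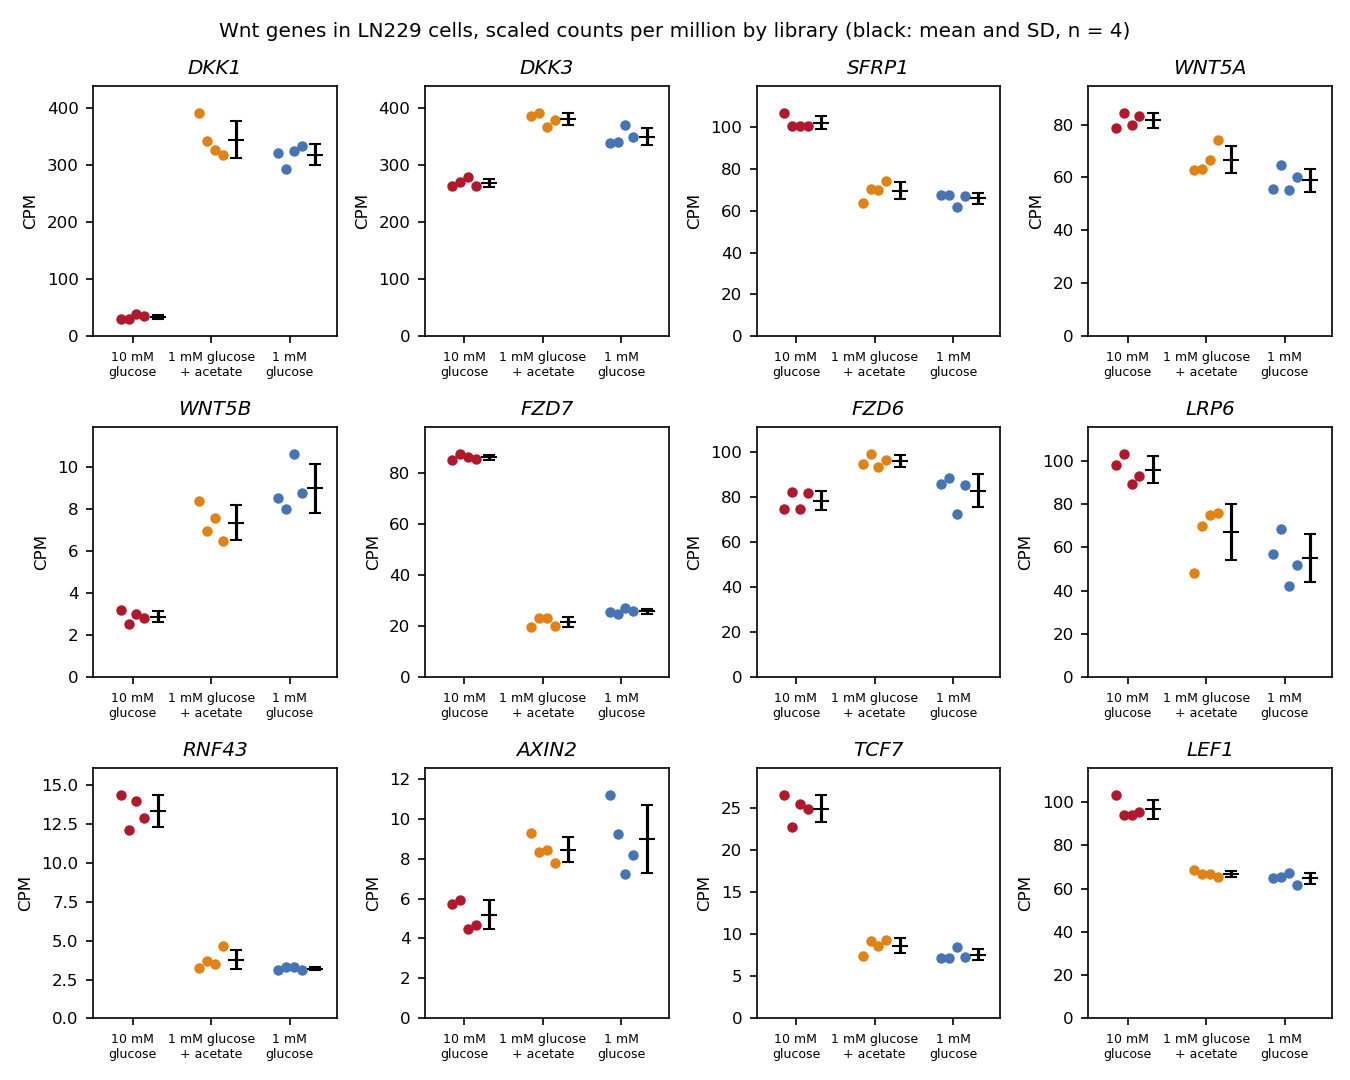
Scaled level (CPM, vertical axes from 0) of 12 Wnt genes in each library (coloured points), with the mean and SD of the 4 libraries of a group (black). DKK1 sits between 30.6 and 38.6 CPM at 10 mM glucose and above 292 CPM in the other 8 libraries, while RNF43, FZD7 and TCF7 show the opposite arrangement.

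The promoters shown are those of the genes with the widest glucose differences, whichever way they moved. DKK1 and TCF7 are known targets of beta-catenin, and RNF43 is one of the inhibitors that the pathway often induces. Shared control of these genes was not tested. RefSeq promoters (GRCh38.p14) were in the table used for DKK1, RNF43, TCF7 and WNT5B, with 2 starts for each of the last 3, and FZD7 was not among them. Each line gives the bases from −250 to −1 of a gene start, 5′ to 3′ on the gene's strand. Capitals mark a match to the TCF/LEF letters CTTTGAT or CTTTGTT on either strand. Which start these cells use is not known from the counts.
DKK1, chr10:52314031-52314280, plus strand: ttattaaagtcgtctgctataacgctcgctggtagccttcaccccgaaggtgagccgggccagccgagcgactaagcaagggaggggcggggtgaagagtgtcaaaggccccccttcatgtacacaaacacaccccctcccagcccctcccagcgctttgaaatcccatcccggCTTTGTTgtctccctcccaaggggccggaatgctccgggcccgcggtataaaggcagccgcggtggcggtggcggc
RNF43, chr17:58417535-58417784, minus strand: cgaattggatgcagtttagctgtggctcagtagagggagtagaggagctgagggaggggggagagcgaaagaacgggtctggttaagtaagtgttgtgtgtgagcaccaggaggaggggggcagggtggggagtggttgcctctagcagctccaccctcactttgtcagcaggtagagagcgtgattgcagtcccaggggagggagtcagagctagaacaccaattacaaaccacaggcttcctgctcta
RNF43, chr17:58402722-58402971, minus strand: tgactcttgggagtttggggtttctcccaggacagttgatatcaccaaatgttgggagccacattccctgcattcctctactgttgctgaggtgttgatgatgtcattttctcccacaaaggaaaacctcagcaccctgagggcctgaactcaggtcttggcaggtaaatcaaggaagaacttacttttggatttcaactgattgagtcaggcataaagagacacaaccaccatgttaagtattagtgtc
TCF7, chr5:134115363-134115612, plus strand: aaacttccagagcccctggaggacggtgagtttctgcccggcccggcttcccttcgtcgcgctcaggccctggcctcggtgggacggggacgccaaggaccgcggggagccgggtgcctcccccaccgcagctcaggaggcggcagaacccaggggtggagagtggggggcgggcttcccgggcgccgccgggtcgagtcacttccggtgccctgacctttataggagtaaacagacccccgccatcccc
TCF7, chr5:134123368-134123617, plus strand: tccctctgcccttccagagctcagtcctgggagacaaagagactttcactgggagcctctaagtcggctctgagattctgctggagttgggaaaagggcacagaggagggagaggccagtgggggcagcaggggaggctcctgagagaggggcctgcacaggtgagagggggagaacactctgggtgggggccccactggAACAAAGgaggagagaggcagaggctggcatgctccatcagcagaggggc
WNT5B, chr12:1616806-1617055, plus strand: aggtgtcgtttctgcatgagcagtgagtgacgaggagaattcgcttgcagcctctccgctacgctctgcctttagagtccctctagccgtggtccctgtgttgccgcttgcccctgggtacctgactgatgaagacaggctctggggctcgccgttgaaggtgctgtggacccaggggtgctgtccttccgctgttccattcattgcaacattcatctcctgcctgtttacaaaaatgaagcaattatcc
WNT5B, chr12:1628981-1629230, plus strand: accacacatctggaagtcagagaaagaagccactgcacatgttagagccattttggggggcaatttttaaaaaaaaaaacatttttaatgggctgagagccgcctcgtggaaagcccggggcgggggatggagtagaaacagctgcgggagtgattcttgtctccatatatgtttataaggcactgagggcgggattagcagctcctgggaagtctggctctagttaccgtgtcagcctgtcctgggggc
DKK1 held CTTTGTT on its own strand at −76, and the second TCF7 start held it on the opposite strand at −50, while neither RNF43 nor WNT5B had a match in these windows. Of the 32 tested Wnt genes, 21 had a promoter in the table used, with 29 windows in all. TCF/LEF matches were in 3 of these 29 windows (10.3%), the third being TCF7L2 at −133, and in 6.6% of all 35116 windows of this length. The E-box CACGTG was in 1 window, that of APC at −46 (3.45%), against 6.34% of all windows. The ATF4-type letters TGATGNAA were in 0 of the 29 windows and in 3.14% of all windows. None of these 4 matches overlapped another motif. A match describes letters only and shows no binding.

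Among the receptors, FZD7 had the widest difference. It had 85.2, 87.5, 86.1 and 85.4 CPM at 10 mM glucose, 19.8, 23.4, 23.3 and 20.2 CPM with acetate, and 25.5, 24.8, 27.3 and 25.8 CPM at 1 mM glucose alone. All libraries at 10 mM glucose were above the rest, and those with acetate were all below those at 1 mM alone. It was 3.33-fold higher at 10 mM than at 1 mM glucose (log2 fold change 1.73 ± 0.06, SE, edgeR adjusted p = 8.4e-12), and with acetate it was slightly lower (log2 fold change −0.26 ± 0.06, SE, edgeR adjusted p = 0.0161). The acetate call ended with only the 8 libraries compared (adjusted p = 0.0787) and without acetate replicate 4 (adjusted p = 0.0621), with adjusted p = 0.0018 to 0.0787 over its alternatives.

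FZD1 was higher at 10 mM glucose as well, with 140.0, 141, 146 and 141 CPM at 10 mM glucose, 112, 112, 109 and 109 CPM with acetate, and 104, 99.6, 108 and 99.4 CPM at 1 mM glucose alone (log2 fold change 0.47 ± 0.04, SE, edgeR adjusted p = 3.3e-07). FZD5 (0.53 ± 0.11) and FZD8 (0.40 ± 0.06) were called higher with groups that did not overlap, and FZD3 was called at 0.24 ± 0.08 with groups that did (log2 fold changes with SE). FZD3 was the exception among these calls: its log2 fold change was 0.02 (adjusted p = 0.832) once the dependence on length and GC was taken out of each library, and its adjusted p was 0.0511 without 10 mM replicate 1. FZD6, one of the most abundant Frizzled transcripts at 1 mM glucose, did not differ detectably between 10 mM and 1 mM glucose (log2 fold change −0.08 ± 0.06, SE, edgeR adjusted p = 0.286). It had 74.7, 82.4, 74.8 and 81.9 CPM at 10 mM glucose, 94.5, 99.2, 93.3 and 96.7 CPM with acetate, and 85.7, 88.3, 72.4 and 85.3 CPM at 1 mM glucose alone. Without 1 mM replicate 3, its lowest library, FZD6 was called lower at 10 mM glucose (log2 fold change −0.14, adjusted p = 0.0261). The acetate libraries were all above the rest, and the acetate call for FZD6 was marginal (log2 fold change 0.21 ± 0.06, SE, edgeR adjusted p = 0.0423, 0.0049 to 0.115 over its alternatives). FZD4 was called lower with acetate (log2 fold change −0.25 ± 0.06, SE, edgeR adjusted p = 0.0192), with 11.9 to 13.0 CPM in the acetate libraries against 13.7 to 16.1 CPM at 1 mM alone, a call lost with only the 8 libraries compared (adjusted p = 0.0827) and without 1 mM replicate 1 (adjusted p = 0.0583). For glucose, FZD2, FZD4 and FZD9 were not called. With the length and GC trend removed, FZD4 was called lower at 10 mM glucose (log2 fold change −0.16, edgeR adjusted p = 0.0161). Without acetate replicate 1 and 1 mM replicate 3, FZD9 was called higher there (log2 fold change 0.63, edgeR adjusted p = 0.0175).

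In RPKM, the 10 Frizzled genes summed to 82.3 ± 0.908 at 10 mM glucose, 63.3 ± 1.05 with added acetate and 59.6 ± 0.614 at 1 mM glucose alone (SD, n = 4 each). FZD7 was 27.1% of that sum at 10 mM glucose, 8.86% with added acetate and 11.2% at 1 mM glucose alone. FZD6 was 25.2%, 40.02% and 36.7% in the same order of groups, and FZD1 24.8%, 25.1% and 24.7%. At 10 mM glucose FZD7, FZD6 and FZD1 stood at like levels per length, 22.3 ± 0.268, 20.7 ± 1.13 and 20.4 ± 0.395 RPKM. At 1 mM glucose alone the order was FZD6 (21.9 ± 1.88 RPKM), FZD1 (14.7 ± 0.554) and FZD7 (6.70 ± 0.269). FZD10 had 0 counts in all 12 libraries, which allows up to 0.00957 CPM over their summed depth, for counting error only.

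**Figure D3:**
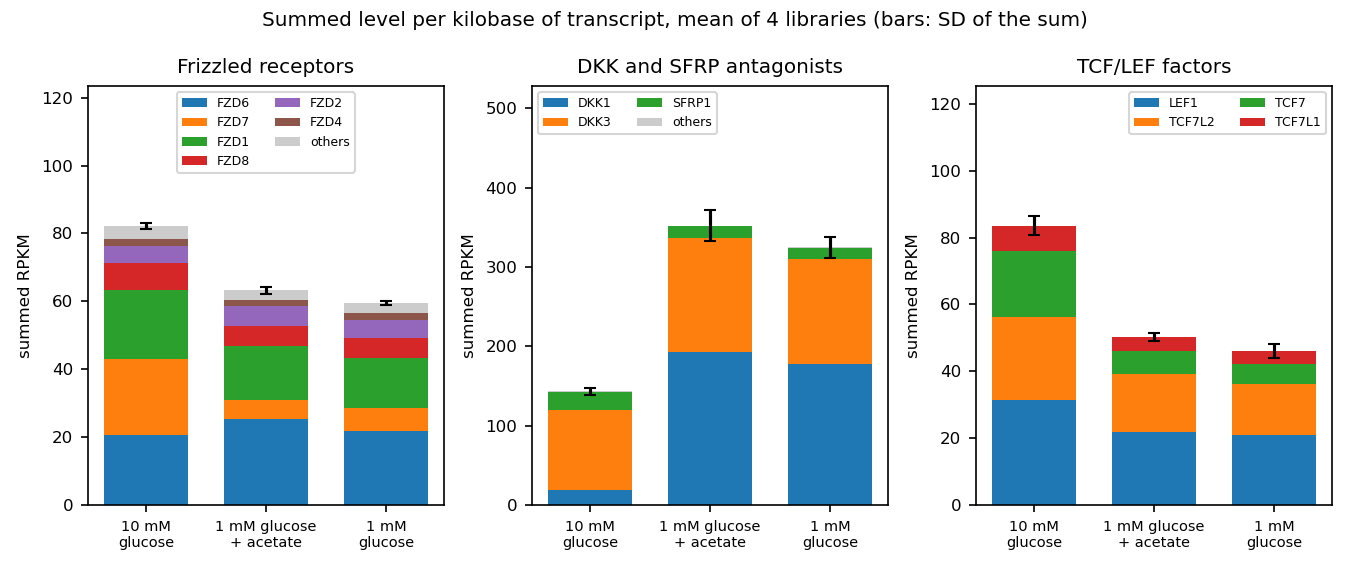
Stacked bars of the mean RPKM (vertical axes from 0) of Frizzled receptors, DKK and SFRP antagonists and TCF/LEF factors in the 3 groups; black bars are the SD of the sum over 4 libraries. The DKK and SFRP sum, DKK3 included, is 143 at 10 mM glucose against 325 at 1 mM glucose alone. The FZD7 segment of the receptor sum is 22.3 against 6.70 RPKM.

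The co-receptors differed from each other. LRP6 had 98.2, 103, 89.3 and 93.0 CPM at 10 mM glucose, 48.2, 69.7, 75.1 and 76.0 CPM with acetate, and 57.1, 68.6, 42.2 and 51.9 CPM at 1 mM glucose alone. All libraries at 10 mM glucose were above the other 8, and the acetate libraries overlapped those at 1 mM alone (log2 fold change 0.80 ± 0.14, SE, edgeR adjusted p = 1.7e-04). Its lowest values were in acetate replicate 1 and 1 mM replicate 3, the libraries that stood apart with transcript length. Without both, the glucose difference was 0.70 on the log2 scale (adjusted p = 1.9e-08) and acetate was called at 0.31 (adjusted p = 0.0049). LRP5 did not differ detectably (log2 fold change −0.07 ± 0.09, SE, edgeR adjusted p = 0.506), but with the length and GC trend removed it was called lower at 10 mM glucose (adjusted p = 0.0018).

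Of the 19 Wnt ligand genes, 6 had enough counts to test. WNT5A was the main ligand, at 78.6% of the summed ligand RPKM at 10 mM glucose, 65.9% with added acetate and 62.1% at 1 mM glucose alone. It had 78.6, 84.4, 79.9 and 83.2 CPM at 10 mM glucose, 63.0, 63.3, 66.5 and 74.0 CPM with acetate, and 55.5, 64.6, 55.2 and 60.2 CPM at 1 mM glucose alone. All libraries at 10 mM glucose were above the rest (log2 fold change 0.47 ± 0.07, SE, edgeR adjusted p = 1.7e-05). Its close paralog WNT5B went the other way, with 3.17, 2.54, 2.99 and 2.84 CPM at 10 mM glucose, 8.39, 6.94, 7.57 and 6.46 CPM with acetate, and 8.51, 7.97, 10.6 and 8.77 CPM at 1 mM glucose alone. Its libraries at 10 mM glucose were all below the other 8 (log2 fold change −1.64 ± 0.12, SE, edgeR adjusted p = 1.5e-08).

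WNT16 was called higher at 10 mM glucose near 1 CPM (log2 fold change 0.52 ± 0.22, SE, edgeR adjusted p = 0.0466), a call lost under 14 of its 23 alternatives. WNT3, WNT2B and WNT10B were not called for glucose, and WNT3 missed the threshold narrowly (adjusted p = 0.056). The other 13 ligand genes had between 0 and 82 counts summed over the 12 libraries and were not tested. WNT2 had 0 counts, WNT7A and WNT3A had 2 each, WNT1 had 3, and WNT4 had the 82.

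The feedback inhibitors split. RNF43, a membrane ubiquitin ligase that removes Frizzled receptors from the cell surface, had 14.4, 12.2, 14.0 and 12.9 CPM at 10 mM glucose, 3.25, 3.70, 3.52 and 4.65 CPM with acetate, and 3.09, 3.29, 3.31 and 3.10 CPM at 1 mM glucose alone. The libraries at 10 mM glucose were all well above the other 8, a difference of 4.17-fold (log2 fold change 2.06 ± 0.10, SE, edgeR adjusted p = 2.9e-10). Its relative ZNRF3, which does the same, had 34.3, 33.9, 31.6 and 31.5 CPM at 10 mM glucose, 17.7, 21.4, 23.0 and 23.7 CPM with acetate, and 22.9, 21.8, 20.005 and 21.0 CPM at 1 mM glucose alone. Again all libraries at 10 mM glucose were above the other 8, at a smaller difference (log2 fold change 0.62 ± 0.08, SE, edgeR adjusted p = 9.5e-06). AXIN2, a scaffold of the destruction complex, had 5.73, 5.92, 4.48 and 4.66 CPM at 10 mM glucose, 9.28, 8.32, 8.44 and 7.79 CPM with acetate, and 11.2, 9.24, 7.25 and 8.20 CPM at 1 mM glucose alone. It was lower in all libraries at 10 mM glucose than in any other (log2 fold change −0.79 ± 0.13, SE, edgeR adjusted p = 9.4e-05). NKD2, which binds Dishevelled, was near 1 CPM and was called lower (log2 fold change −0.57 ± 0.24, SE, edgeR adjusted p = 0.0453), a call lost under 9 of its 23 alternatives, and NKD1 had 50 counts in all.

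CTNNB1, the gene of beta-catenin, had 415, 414, 413 and 413 CPM at 10 mM glucose, 265, 289.9, 279.6 and 281 CPM with acetate, and 283, 285, 261 and 285 CPM at 1 mM glucose alone. The 4 libraries at 10 mM glucose were nearly identical and above all others (log2 fold change 0.57 ± 0.05, SE, edgeR adjusted p = 8.1e-08), and no difference with acetate was detected (0.00 ± 0.05, SE, edgeR adjusted p = 0.997). Its partners in the destruction complex went opposite ways. APC had 133, 159, 138 and 131 CPM at 10 mM glucose, 81.5, 113, 129 and 136 CPM with acetate, and 97.6, 117, 65.9 and 90.5 CPM at 1 mM glucose alone. It was called higher (log2 fold change 0.59 ± 0.16, SE, edgeR adjusted p = 0.00477) in spite of a wide spread at 1 mM, where replicate 3 was lowest. Among the acetate libraries replicate 1 was lowest, and these are the libraries that stood apart with transcript length. Without both, the glucose difference of APC was 0.46 on the log2 scale (edgeR adjusted p = 2.4e-05). AXIN1 was 9.78 ± 0.547 CPM at 10 mM glucose, 11.4 ± 0.632 CPM with added acetate and 13.0 ± 0.66 CPM at 1 mM glucose alone (SD, n = 4 each), lower at 10 mM glucose without overlap (log2 fold change −0.42 ± 0.07, SE, edgeR adjusted p = 8.7e-05).

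All 4 TCF/LEF factors were higher at 10 mM glucose, with groups that did not overlap, and each stayed called under every alternative run, library totals included, apart from the 1.5-fold minimum, which LEF1 missed. TCF7, the factor that led them, had 26.6, 22.8, 25.5 and 24.9 CPM at 10 mM glucose, 7.43, 9.23, 8.56 and 9.34 CPM with acetate, and 7.17, 7.19, 8.54 and 7.30 CPM at 1 mM glucose alone. The difference was 3.30-fold (log2 fold change 1.72 ± 0.09, SE, edgeR adjusted p = 2.8e-10). TCF7L1, most often a repressor in this family, averaged 22.4 ± 1.62 CPM at 10 mM glucose, 12.7 ± 0.771 CPM with added acetate and 11.7 ± 1.55 CPM at 1 mM glucose alone (log2 fold change 0.94 ± 0.09, SE, edgeR adjusted p = 2.8e-07). TCF7L2 averaged 53.3 ± 1.42 CPM at 10 mM glucose, 37.6 ± 2.36 CPM with added acetate and 32.7 ± 1.34 CPM at 1 mM glucose alone (log2 fold change 0.71 ± 0.06, SE, edgeR adjusted p = 4.3e-08). LEF1 averaged 96.6 ± 4.54 CPM at 10 mM glucose, 66.8 ± 1.34 CPM with added acetate and 64.7 ± 2.35 CPM at 1 mM glucose alone (log2 fold change 0.58 ± 0.05, SE, edgeR adjusted p = 9.6e-08; SD, n = 4 each). In RPKM the 4 factors summed to 83.6 ± 2.90 at 10 mM glucose, 50.3 ± 1.13 with added acetate and 46.2 ± 2.13 at 1 mM glucose alone. TCF7 held 23.8%, 13.7% and 13.0% of the sum in the same order of groups, and LEF1, the highest, 37.7%, 43.3% and 45.7%.

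Few of these genes differed with acetate at 1 mM glucose. Of the 32 tested, edgeR called 5 (15.6%), against 13.7% of all genes (6.65% higher, 7.09% lower). The groups did not overlap in 7, against 15.6% of all genes. Of the 5, FZD6, TCF7L2 and WNT10B were higher and FZD7 and FZD4 lower. With library totals 6 of 8 calls among the Wnt genes were higher (with TMM, 3 of 5), and over all genes 65.2% of the calls were (with TMM, 48.4%). TCF7L2 rose slightly (log2 fold change 0.20 ± 0.06, SE, edgeR adjusted p = 0.0299), with 35.6 to 40.7 CPM in the acetate libraries against 31.4 to 34.4 CPM at 1 mM alone. WNT10B, whose level is below that of the naming rule and which was chosen after its values were seen, averaged 1.79 ± 0.0976 CPM with added acetate and 1.249 ± 0.203 CPM at 1 mM alone (log2 fold change 0.52 ± 0.15, SE, edgeR adjusted p = 0.0333). No call held under every alternative, and the count was 0 with only the 8 libraries compared, where edgeR gave 9 genes an unadjusted p under 0.05. Limma-voom and DESeq2 on all 12 libraries each called 5. Counts after leaving out 1 library included 1 (1 mM replicate 1, acetate replicate 4), 2 (1 mM replicate 4, acetate replicate 3), 3 (acetate replicate 2) and 9 (acetate replicate 1). The remaining runs of this kind lay within 1 to 9.

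Without acetate replicate 1 and 1 mM replicate 3 together, acetate called 12 of the 32 Wnt genes, 9 higher and 3 lower, against 25.8% of all genes (13% higher, 12.8% lower). The 9 were APC (0.31), DKK3 (0.15), FZD6 (0.16), LRP6 (0.31), TCF7 (0.33), TCF7L2 (0.25), WNT3 (0.58), WNT5A (0.18) and WNT10B (0.64), and the 3 were FZD4 (−0.26), FZD7 (−0.19) and WNT5B (−0.27), as log2 fold changes. DKK1, RNF43 and AXIN2, with wide differences for glucose, were not among them.

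With 10 mM glucose set against acetate, 26 of the 32 were called, 17 higher and 9 lower, against 62.8% of all genes (31% higher, 31.8% lower). The groups did not overlap in 24, against 61% of all genes. Over all genes, library totals made 60.8% of these calls higher, against 49.4% with TMM. Since the other comparisons share the 1 mM libraries, this direct one tests how they differ. Without acetate replicate 1 and 1 mM replicate 3 it called 27, 17 higher and 10 lower, against 68.7% of all genes (34.3% higher, 34.4% lower). All 9 tested Frizzled genes were called in it, FZD2 and FZD6 lower and the other 7 higher, although the calls of FZD2, FZD3, FZD4 and FZD9 were each lost under 1 to 5 alternatives. FZD7 differed by 1.99 ± 0.06 (SE), against 1.73 ± 0.06 for 10 mM over 1 mM glucose, and FZD6 by −0.29 ± 0.06 (SE). RNF43 (1.82 ± 0.10), TCF7 (1.53 ± 0.08), WNT5B (−1.35 ± 0.12) and AXIN2 (−0.70 ± 0.13) kept the direction they had for glucose (log2 fold changes with SE). APC did not pass this test (edgeR adjusted p = 0.135). It was called higher under 3 of 24 alternatives. These were library totals (edgeR adjusted p = 0.0435) and the length and GC trend removed, without the replicate block (0.0226) and with it (0.0296).

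Other genes of the pathway were described in 4 lists. In that of ligand release and other receptors, 9 of 15 tested genes were higher and 3 lower at 10 mM glucose, with a median log2 fold change of 0.50. The share called was 80.0% in this list, 59.5% in the relay list and 66.7% in the polarity and calcium list, against 67.5% of all genes (33.7% higher, 33.8% lower). PORCN, the acyltransferase that lipid-modifies Wnt proteins, was lower (−1.48 ± 0.07), while KREMEN1, a co-receptor of DKK1 (1.27 ± 0.09), and LRP4 (1.11 ± 0.14) were higher. In the list of cytoplasmic and nuclear relay proteins, 15 of 37 were higher and 7 lower (median 0.19), led by CXXC5, which binds Dishevelled (1.61 ± 0.08), the beta-catenin coactivator BCL9 (1.58 ± 0.08) and FAM123B, which promotes beta-catenin breakdown (1.15 ± 0.14). In the planar polarity and calcium list, 14 of 30 were higher and 6 lower (median 0.16), led by the calcium-regulated factor NFATC2 (2.22 ± 0.25), the small GTPase RHOU (1.68 ± 0.10) and the cadherin CELSR2 (1.64 ± 0.16). All of these are edgeR log2 fold changes with SE.

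Reported targets of beta-catenin outside the core did not move one way: 8 of 23 were higher and 10 lower at 10 mM glucose (median 0.09). The 3 widest were all lower, namely the cyclooxygenase PTGS2 (−3.64 ± 0.14), MYC (−2.66 ± 0.06) and the angiogenic factor VEGFA (−2.63 ± 0.06), each of which has many other regulators. The share called in this list was 78.3% (34.8% higher, 43.5% lower), against 67.5% of all genes (33.7% higher, 33.8% lower). Over the 4 lists together it was 68.6%, near that of all genes.

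With acetate at 1 mM glucose, 3 of 15 genes of ligand release and other receptors were higher and 2 lower, with KREMEN1 (0.40 ± 0.09), PORCN (−0.29 ± 0.07) and the pseudokinase receptor PTK7 (0.29 ± 0.05) changing most among called genes with a group mean of at least 2 CPM. FRZB, a secreted Frizzled-related antagonist below that level, was called lower with a wider change (−1.22 ± 0.26), at 0.301 CPM with acetate against 0.706 CPM at 1 mM alone. In the relay list 5 of 37 were higher and 1 lower, with the corepressors TLE2 (0.50 ± 0.12) and TLE3 (−0.36 ± 0.08) and FAM123B (0.50 ± 0.15) changing most among called genes at that minimum. The acetate calls of FAM123B, BCL9 and CXXC5 were lost under 10, 8 and 7 of 24 alternatives, and the TLE2 call without 1 mM replicate 4 (adjusted p = 0.0574). In the polarity and calcium list 7 of 30 were higher and 0 lower, with CELSR2 (0.69 ± 0.16), PLCB4 (0.60 ± 0.08) and NFATC4 (0.54 ± 0.06) changing most among called genes. Of the 23 beta-catenin targets 2 were higher and 8 lower, with ID2, an inhibitor of helix-loop-helix factors (−1.40 ± 0.08), and PTGS2 (−0.56 ± 0.12) lower and TCF4, a helix-loop-helix factor outside the TCF/LEF family (0.59 ± 0.10), higher. The share called was 33.3% in the list of ligand release and other receptors and 16.2% in the relay list. It was 23.3% in the polarity and calcium list and 43.5% among the beta-catenin targets. The 4 lists together had 28 of 105 called (26.7%), against 13.7% of all genes (6.65% higher, 7.09% lower). Without acetate replicate 1 and 1 mM replicate 3 they had 39 called, 26 higher and 13 lower, against 25.8% of all genes (13% higher, 12.8% lower).

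**Figure D4:**
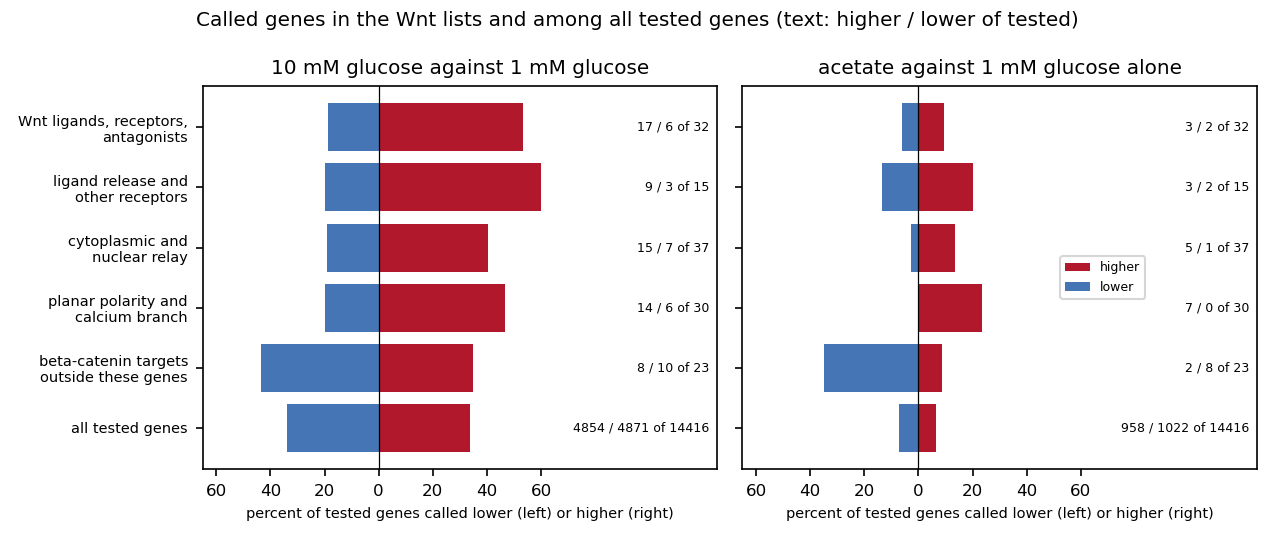
Percent of tested genes called higher (red, right of 0) or lower (blue, left of 0) at 10 mM against 1 mM glucose (left panel) and with acetate against 1 mM glucose alone (right panel), for the Wnt genes, 4 surrounding lists and all tested genes, with the counts beside the bars. At 10 mM glucose 17 of 32 Wnt genes are higher and 6 lower, against 4854 and 4871 of 14416 genes.

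Several transcripts were counted for 13 of the 51 genes. The counts of a gene's transcripts were close to each other: in the 12 such genes with any counts, the transcript with the lowest total had 89.1% to 99.96% of the total of the one used. The transcript used had the highest total for all 51 genes, so taking the highest in place of the marked one changed no value among them beyond the scaling. The counts therefore say little about isoforms of TCF7, TCF7L2 or LEF1, some of which lack the beta-catenin binding region.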

How the data were processed

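The authors deposited raw counts per RefSeq transcript, whole numbers with no normalization, 1 file per library, for 34917 transcripts of 22257 genes. The build is hg19 per the submitters' processing notes; for the aligner, counter and strand the entry is: not given in the sources used here. The near-equal totals of a gene's transcripts mean that a read may be counted for several of them. Whether reads of overlapping or near-identical genes were kept apart is not known here. The transcript the authors marked stood for its gene (48 of the 51 members); for WNT1, WNT2 and TCF7, with no mark, the transcript with the highest total did.

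After filterByExpr and TMM scaling, a quasi-likelihood F test was run on the counts of all 12 libraries (edgeR 4.0.16 in R 4.3.3), with 1 mean per group and no covariate. Benjamini-Hochberg adjustment covered the 14416 genes tested, and an adjusted p under 0.05 is a call. The common biological coefficient of variation was 8.51%. Standard errors (SE) are the log2 fold change divided by the square root of F. Since separate cultures are not stated, p-values measure the spread between these libraries, which may be technical. The procedure was tested on simulated data, with some genes changed in the acetate group only, a fixed dispersion and no length trend. That test does not cover shifts as wide as those with glucose. Nor does it cover the libraries that stood apart with transcript length. Intervals and limits on 0 counts (3 counts) cover counting error only. RPKM are CPM divided by the GENCODE v29 transcript length, matched by accession for all 51 genes; these lengths can differ from those of the RefSeq transcripts counted.

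The members and the lists around them were chosen with earlier results of these data known. Genes given with values by library or group were those called in any comparison with a group mean of at least 2 CPM, at most 24; from each surrounding list, up to 3 called genes with the widest change and the same minimum. LRP5, WNT3, WNT10B, WNT16, NKD2 and FRZB fall outside this rule and were named after their values were seen. DESeq2 1.42.0, limma-voom (limma 3.58.1), other scalings, filters, a replicate block, a spline over length and GC with 5 degrees of freedom, and left-out libraries were alternatives.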

Additional observations from a re-analysis of the deposited data

Results flagged for a closer look

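In 6 of 72 groups of 4 libraries (24 genes in 3 groups each), 1 library lay far from the other 3; the gap to its nearest neighbour exceeded Dixon's 95% critical value. Chance alone gives about 1 such group in 20. The library 1 mM replicate 3 was the one apart in 3 of them: TCF7 was highest there at 8.54 CPM, SFRP1 lowest at 61.7 CPM and CTNNB1 lowest at 261 CPM. This is also one of the libraries that stood apart with transcript length. At 10 mM glucose, replicate 1 was highest for SFRP1 at 107 CPM and for LEF1 at 103 CPM, and replicate 3 was highest for TCF7L1 at 24.8 CPM. In each of these genes the libraries at 10 mM glucose stayed above those at 1 mM.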

How the results depend on the processing

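Of the 23 calls for glucose among the Wnt genes, 20 held under all alternatives run apart from the fold minimum, and FZD3, NKD2 and WNT16 did not; against acetate, 21 of 26 held, and for acetate alone 0 of 5. No call changed sign. Of the 9 tested Wnt genes not called for glucose, 6 were called under some alternative. For acetate this held for 9 of 27, and for 10 mM glucose against acetate for 3 of 6. The acetate count of 5 was 8 with library totals, 3 with no filter, 0 with only the 8 libraries compared, 10 with the length and GC trend removed (8 with the replicate block added), 12 without 1 mM replicate 3 and acetate replicate 1, and 1 to 9 when 1 library was left out. Over all genes, the acetate count of 1980 was 1056 with only the 8 libraries compared, 3956 with the length and GC trend removed (3582 with the block added), 3728 without those 2 libraries, and 1196 to 2956 when 1 library was left out. A 1.5-fold minimum left 12, 0 and 11 of the Wnt genes (glucose, acetate, 10 mM glucose against acetate), 40, 5 and 32 of the surrounding genes, and 4547, 380 and 3672 of all genes, fewer by construction. For the other changes the cause was not tested. Among the surrounding genes, library totals made 75.6% of the glucose calls higher, against 63.9% with TMM.

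The labels do not say that the replicate numbers pair the libraries. Same-numbered libraries of different groups correlated from −0.365 to 0.27 in their deviations from the group means, 3 of 12 pairs above 0.1. The 36 other pairs ran from −0.547 to 0.591, highest for 1 mM replicate 3 with acetate replicate 1, the libraries that stood apart with transcript length. With such differences between libraries, this check cannot exclude pairing. With the replicate block, 22, 4 and 26 Wnt genes were called, losing NKD2 and WNT16 for glucose and WNT10B for acetate, and gaining WNT3 for glucose. Genes under about 1 CPM were limited by depth, and for them a difference may not have been detectable.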

Other observations

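The count of the LEF1 transcript used less that of another listed LEF1 transcript, as a share of the former, was examined after the counts had been seen. This share is a net difference, and where the reads lay was not measured. It was 13.5 ± 0.137% at 10 mM glucose, 9.01 ± 0.936% with added acetate and 8.75 ± 1.29% at 1 mM glucose alone (SD, n = 4 each). In counts, the net difference per library was 345 to 360 at 10 mM glucose, 141 to 168 with added acetate and 119 to 168 at 1 mM alone. The 10 mM libraries did not overlap the others (exact two-sided permutation p = 0.0286 against each group, the smallest that 4 against 4 can give, and adjusted p = 0.0643 over the 9 comparisons made in 3 genes). For CTNNB1 the like share, against another listed transcript, was 4.01 ± 0.101% at 10 mM glucose, 5.13 ± 0.511% with added acetate and 5.04 ± 0.652% at 1 mM alone, with the same p-values. For TCF7L2 the like share was 1.79 ± 0.425%, 2.04 ± 0.367% and 1.66 ± 0.571% in the same order of groups (exact p = 0.686 for 10 mM against 1 mM glucose). The libraries that stood apart with transcript length were extremes of both shares: acetate replicate 1 and 1 mM replicate 3 had the lowest LEF1 shares (7.61% and 7.73%) and the highest CTNNB1 shares (5.83% and 5.86%) of all 12 libraries. The part of transcript length in these shares was not tested. The exons behind these counts are not known here.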
